A study of Mus musculus with 32 samples.

Results

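The atria of 4 non-transgenic control mice (Ntg) were compared within each animal, setting the atrium whose array carried a high level of Bmp10 against the atrium whose array carried a low one. The arrays were chosen by measurement and not by their side label: of the 8 Ntg arrays among the 32 of the study, the array of each animal with Bmp10 above 9 log2 was called Bmp10-high and the other Bmp10-low, which gave 4 of each. The other 24 arrays came from the atria of 12 further mice, 4 each transgenic for a dominant negative phosphoinositide kinase (dnPI3K), for the sterile 20-like kinase Mst1, or for both (dnPI3K-Mst1). All 16 mice had a combined C57BL/6 and FVB/N background, ate standard chow and lived under a 12 hour light and dark cycle. The labels give no sex or age for any group, and they state neither the promoter of the transgenes nor the number of founder lines. The titles name atria, while the extraction protocol speaks of homogenised heart. Each atrium was one Affymetrix Mouse Gene 1.0 ST array made from 100 ng of total RNA.

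Bmp10 encodes a secreted ligand of the bone morphogenetic protein (BMP) family that the heart makes and that circulates in blood. In the adult mouse its transcript is known as a marker of right atrial myocytes. BMP ligands bind paired type I and type II serine/threonine kinase receptors, these phosphorylate the receptor SMADs, and the SMADs enter the nucleus and switch on a small set of shared targets, among them the inhibitory SMADs, the Id genes and hepcidin. The right atrium also holds the sinoatrial node, the pacemaker of the heart, at the entry of the superior caval vein.

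Bmp10 read 12.31, 12.52, 12.28 and 12.51 log2 on the high arrays of animals 1301, 1657, 1662 and 1834, and 5.03, 5.62, 4.74 and 4.86 log2 on their low arrays. This order of animals is kept wherever 4 values are given. No array lay between the groups, so the choice did not depend on the exact threshold. The high array was the one labelled right in animals 1301 and 1662 and the one labelled left in animals 1657 and 1834. Over all 16 animals the higher Bmp10 lay on the array labelled left in 13 and on the array labelled right in 3, and all 8 dnPI3K and dnPI3K-Mst1 animals had it on the labelled left. With the Ntg arrays compared by label, right minus left, 0 of 15219 genes passed limma at an adjusted p of 0.05, 269 had an unadjusted p under 0.05, and 1 gene was 2-fold apart in the mean with 1 sign in all pairs. Since the gene marks the right atrium elsewhere, the side labels and Bmp10 go against each other in most animals, and in Ntg they agree in only 2 of 4. Which of them is right was not tested, and the arrays are named below by Bmp10 alone.

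**Figure D1:**
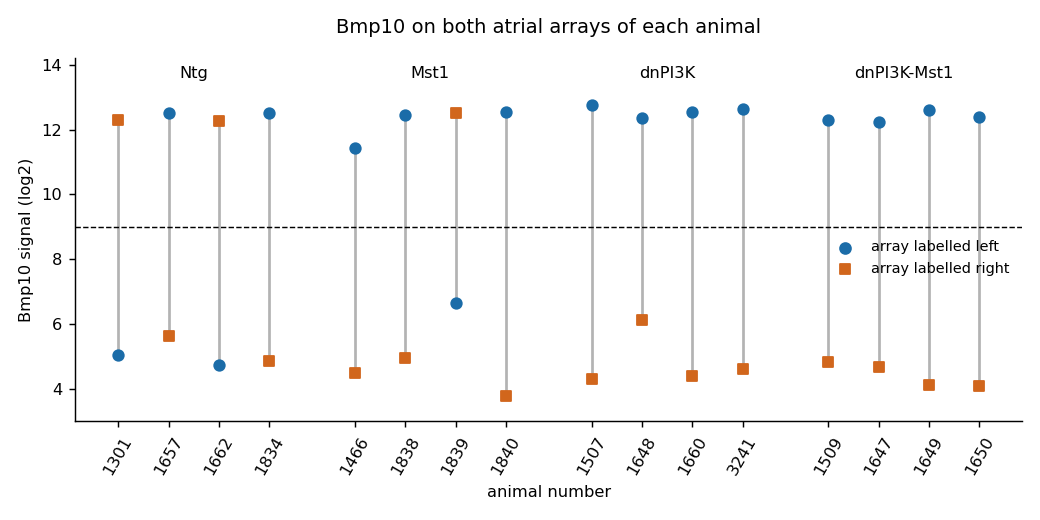
Bmp10 signal (log2, vertical axis) on both atrial arrays of each of the 16 animals (horizontal axis, grouped by genotype). Circles are arrays labelled left and squares arrays labelled right, a grey line joins an animal's arrays, and the dashed line is the limit of 9 log2. The Ntg high arrays sit between 12.28 and 12.52 and the low ones between 4.74 and 5.62, with 2 squares and 2 circles on the high side.

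Both arrays of every Ntg animal carried atrial transcripts at a high level. Nppa, the atrial natriuretic peptide gene, ranged from 13.16 to 13.44 log2 over all 8 and differed by 0.08 ± 0.17 (SD, n = 4 pairs) between the classes. Myl7, the atrial myosin light chain, ranged from 12.43 to 12.67. A few arrays also carried genes of neighbouring tissue. Myl2, the ventricular myosin light chain, read 8.15 on the high array of 1301 and 7.65 on the low array of 1834, against 4.54 to 6.19 on the other 6. The low array of 1301 stood apart in fat genes, with a mean over 13 measured white adipocyte genes of 7.73 against 5.77 to 6.62 elsewhere and with the brown fat gene Ucp1 at 8.38 against 4.37 to 5.09. The low array of 1657 stood apart in 24 immediate early genes, whose mean was 7.72 against 6.62 to 6.80 elsewhere. Alb, the albumin gene, read 8.57 on the high and 7.07 on the low array of 1834, against 4.64 to 6.59 elsewhere. The array medians of the 8 ranged from 5.52 to 5.63 log2. The part of any of these tissue genes in the differences below was not tested. In whole tissue, more cells of a type and more RNA per cell cannot be told apart.

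Because Bmp10 chose the arrays, differences between the classes in Ntg are given as a description, without a test. The 8 dnPI3K and dnPI3K-Mst1 animals were not part of this choice, and there the array labelled left was compared with the array labelled right. These genotypes were taken because their labels, unlike those of Ntg and Mst1, were not mixed in Bmp10. The higher Bmp10 lay on the labelled left in all 8. Labelled left minus right is therefore also Bmp10-high minus Bmp10-low there, and it is not independent of Bmp10. This difference was tested with limma, with the animal as a block and Benjamini-Hochberg adjustment over 15219 genes. It is called here the difference in the 8 other animals. It passed an adjusted p of 0.05 for 382 genes, 2.51% of those tested, 152 higher on the labelled left and 230 lower. These animals carry a transgene, so the test shows whether a gene follows the labelled sides there and does not stand in for Ntg.

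Over all genes tested, 13% were higher on the Bmp10-high array in all 4 Ntg pairs and 12.6% were lower. Genes at least 2-fold apart in the mean with 1 sign in all pairs were rarer: 55 were higher, Bmp10 included, which is 0.361% of the genes tested, and 39 were lower, which is 0.256%. Tbx20 at 1.00 was the smallest difference inside this limit on the high side and Calhm5 at 0.99 the largest outside it. On the low side these were Prg4 at -1.01 and Masp1 at -0.99. Of the 55 genes 53, and of the 39 genes 38, had groups that did not overlap, against 3.91% and 3.58% of all genes tested. These genes were picked on the same arrays for wide gaps of 1 sign, which favours separate groups, so nothing is read from this. A paired limma fit in Ntg passed an adjusted p of 0.05 for 753 genes, 4.95% of those tested, 398 higher (2.62%) and 355 lower (2.33%), a count from which nothing is read since Bmp10 set the direction of each pair. With animals 1301 and 1662 alone, whose high arrays were labelled right, 100 genes were 2-fold apart in the mean with 1 sign in both pairs, and with 1657 and 1834 alone, whose high arrays were labelled left, 107 were. A single sign in 2 pairs is easier to meet than in 4, and how many genes these 2 sets share is not given here.

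The gene with the widest mean gap after Bmp10 was Hamp. Cxcl13, at 4.33 log2, came close and was wider apart than Hamp in animals 1301 and 1657. Hamp encodes hepcidin, the hormone that lowers iron export from cells and a known target of BMP signalling in liver. Hamp read 10.45, 10.50, 11.12 and 11.02 log2 on the high arrays and 7.0, 6.71, 6.08 and 5.84 on the low ones. All 4 high arrays exceeded every low array, and the mean difference was 4.37 ± 0.87 log2 (SD, n = 4 pairs), a 20.6-fold gap. Its neighbouring copy Hamp2 read 7.26, 7.27, 8.51 and 7.84 on the high arrays and 5.63, 6.10, 5.41 and 5.65 on the low ones, again without overlap and 2.02 ± 0.83 apart. The 2 genes are close in sequence, and how far the probes of one also read the other is uncertain. In the 8 other animals Hamp was higher on the labelled left by 1.46 ± 0.30 log2 (SE), in 7 of 8 animals (limma, adjusted p = 0.016). That call ended without dnPI3K 1507, 1660 or 3241, with adjusted p of 0.054, 0.06 and 0.053. Fitted by genotype, Hamp gave 2.42 in dnPI3K (adjusted p = 4.1e-07) and 0.50 in dnPI3K-Mst1 (adjusted p = 0.51). Hamp2 did not pass in the 8 other animals (0.64 ± 0.21, adjusted p = 0.16).

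The BMP target genes beside hepcidin leaned the same way in Ntg. Smad6 and Smad7 encode the inhibitory SMADs, which switch the pathway off again. Smad6 read 8.65, 8.33, 7.86 and 8.40 on the high arrays and 7.47, 7.41, 6.82 and 6.64 on the low ones, a difference of 1.22 ± 0.37. Smad7 read 8.74, 8.93, 8.83 and 8.66 against 7.83, 8.12, 7.88 and 7.68, a difference of 0.92 ± 0.07. Neither gene's groups overlapped. Smad9, the gene of the receptor SMAD also called SMAD8, read 6.62, 6.65, 6.65 and 6.70 against 5.64, 5.52, 5.44 and 5.74 (1.07 ± 0.12). Id2, which encodes a dominant negative helix-loop-helix protein, read 9.62, 9.15, 8.80 and 9.14 against 8.38, 8.03, 8.02 and 7.82 (1.11 ± 0.24). Both kept their groups apart. Of its relatives, Id3 was 0.74 ± 0.24 higher and Id1 was 0.31 ± 0.26 higher, each in 4 of 4 pairs.

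The receptor and ligand genes differed less. The type I receptor gene Acvr1 differed by 0.43 ± 0.12 and Eng, whose product endoglin is an endothelial co-receptor for BMP9 and BMP10, by 0.44 ± 0.18, each higher in all 4 pairs. Among ligands Bmp5 read 5.69, 6.01, 5.86 and 6.38 on the high arrays and 5.0, 5.15, 5.16 and 4.96 on the low ones, without overlap (0.92 ± 0.34). Bmp3, known as an antagonist among the BMPs, was lower by 0.37 log2 on average and the extracellular BMP inhibitor gene Chrd by 0.36, each in all 4 pairs. Tgfb3 and the receptor SMAD gene Smad1 were also lower in all 4 pairs, while the antagonist gene Fstl3 was higher in all 4. Bmp4 overlapped between the classes, with 6.65, 6.04, 6.81 and 6.13 against 6.68, 6.16, 6.55 and 6.42. Of 50 tested genes of a list for the BMP and TGF-beta pathway, 16 were higher and 4 lower in all 4 pairs, beside 13% and 12.6% of all genes. The median over the list was 0.07 against 0.00 over all genes.

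Only Smad7 and Hamp of these 50 passed in the 8 other animals as higher on the labelled left, and Bmp4, Inhba and Nbl1 as lower, 2 and 3 genes beside 0.999% and 1.51% of all genes tested. Smad7 was higher by 0.27 ± 0.07 (SE) in 8 of 8 animals (limma, adjusted p = 0.039). That call held in only 2 of the 8 fits that leave out 1 animal; it ended without dnPI3K 1507, 1648 or 1660 and without dnPI3K-Mst1 1509, 1647 or 1650, with adjusted p between 0.053 and 0.11. Smad6 (0.54 ± 0.14, adjusted p = 0.055), Smad9 (0.50 ± 0.17, adjusted p = 0.2), Id2 (0.29 ± 0.09, adjusted p = 0.15) and Bmp5 (0.40 ± 0.19, adjusted p = 0.45) did not pass. In dnPI3K alone Bmp5 (1.04, adjusted p = 7.7e-05), Hamp2 (1.23, adjusted p = 0.0011), Smad6 (0.87, adjusted p = 0.0041) and Smad9 (0.87, adjusted p = 0.013) passed, and in dnPI3K-Mst1 alone none of the 4 did (adjusted p 0.57 to 0.97). Bmp4 was lower on the labelled left in all 8, by 0.63 ± 0.09 (adjusted p = 0.00094), while in Ntg its difference was -0.04 ± 0.23.

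The promoters of 4 of the genes above that were at least 2-fold apart in Ntg are shown because a short motif is known from BMP-responsive genes: GGCGCC, a GC-rich element bound by the BMP receptor SMADs. The 250 bases before each start, read 5′ to 3′ on the gene's strand, were taken from RefSeq (GRCm38.p6): Hamp at chr7:30944030-30944279 (minus strand), Hamp2 at chr7:30924182-30924431 (minus), Id2 at chr12:25096093-25096342 (minus) and Smad9 at chr3:54755332-54755581 (plus). Capitals mark GGCGCC, which reads the same on both strands.
Hamp: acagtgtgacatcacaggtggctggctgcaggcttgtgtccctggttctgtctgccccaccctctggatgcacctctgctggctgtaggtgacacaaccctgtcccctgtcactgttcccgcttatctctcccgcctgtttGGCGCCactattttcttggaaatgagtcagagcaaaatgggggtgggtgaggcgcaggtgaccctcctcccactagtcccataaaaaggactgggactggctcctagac
Hamp2: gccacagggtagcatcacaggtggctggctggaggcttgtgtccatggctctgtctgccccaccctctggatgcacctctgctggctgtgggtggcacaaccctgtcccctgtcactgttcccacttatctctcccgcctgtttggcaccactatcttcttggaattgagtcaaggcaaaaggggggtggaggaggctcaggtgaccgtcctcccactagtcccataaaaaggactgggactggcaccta
Id2: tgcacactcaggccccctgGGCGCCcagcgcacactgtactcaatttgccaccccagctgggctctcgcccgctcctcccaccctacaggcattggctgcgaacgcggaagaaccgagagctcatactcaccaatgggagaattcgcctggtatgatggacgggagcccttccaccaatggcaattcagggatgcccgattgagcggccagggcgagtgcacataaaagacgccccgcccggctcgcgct
Smad9: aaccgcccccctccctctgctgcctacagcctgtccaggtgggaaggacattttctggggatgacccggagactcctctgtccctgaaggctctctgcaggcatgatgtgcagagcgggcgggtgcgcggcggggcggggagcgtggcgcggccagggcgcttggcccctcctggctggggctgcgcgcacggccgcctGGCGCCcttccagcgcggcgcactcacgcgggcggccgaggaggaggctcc
The motif began at position -109 from the start of Hamp, -231 of Id2 and -51 of Smad9. Hamp2 held no match, nor did the same window of Bmp10 (chr6:87428744-87428993, plus) or Smad6 (chr9:64022060-64022309, minus). Of 32851 promoter windows of this length in the table, 9.59% held the motif, so a match is a description of these letters and not a binding site.

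The largest gaps among immune genes were those of a B-cell chemokine, a macrophage receptor and a dendritic cell lectin. Cxcl13, a chemokine that draws B cells, read 8.98, 8.50, 8.94 and 8.76 on the high arrays and 5.24, 4.05, 4.55 and 4.02 on the low ones, a 20.1-fold gap (4.33 ± 0.42 log2). Vsig4, a complement receptor of resident macrophages, read 9.90, 9.38, 9.65 and 9.29 against 6.70, 4.95, 6.42 and 5.33 (3.70 ± 0.60). Cd207, which encodes langerin, a lectin of Langerhans cells and some dendritic cells, read 8.46, 8.08, 8.32 and 7.71 against 4.68, 4.71, 4.63 and 4.60 (3.49 ± 0.31). In all 3 the groups stood far apart, and the low arrays read Cxcl13 and Cd207 close to 4.48 log2, the level under which genes were left out, so their folds rest on a dim side. All 3 followed the labelled left in each of the 8 other animals: Cxcl13 by 4.05 ± 0.17 (SE, limma adjusted p = 6.5e-09), Vsig4 by 3.98 ± 0.14 (adjusted p = 4.9e-10) and Cd207 by 3.30 ± 0.14 (adjusted p = 6.5e-09).

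Macrophage genes did not all point one way. Of 22 tested macrophage and monocyte genes 12 were higher and 5 lower in all 4 Ntg pairs, beside 13% and 12.6% of all genes, with a median of 0.31, and 4 and 3 passed in those directions in the 8 other animals, beside 0.999% and 1.51%. Csf1r, the receptor for the macrophage growth factor, was 0.70 ± 0.15 higher in Ntg without overlap, and Timd4, a marker of long-lived resident macrophages, 0.42 ± 0.14. The scavenger receptor gene Cd163 was higher in all 4 pairs (0.51 ± 0.23) with overlapping groups. F13a1, the factor XIII subunit made by a subset of resident macrophages, ran the other way with 8.40, 7.81, 8.16 and 7.54 on the high and 9.45, 8.79, 9.21 and 9.04 on the low arrays (-1.14 ± 0.24). Cbr2 (-0.80 ± 0.15) and the mannose receptor gene Mrc1 (-0.59 ± 0.16) were lower too, without overlap. The lectin gene Clec10a read 4.47, 4.49, 4.36 and 4.11 against 6.43, 5.83, 6.06 and 6.10 (-1.75 ± 0.30), again with the groups apart and with its high arrays around the dim limit.

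Some genes of both directions passed in the 8 other animals. Timd4 was higher on the labelled left by 0.65 ± 0.07 (limma, adjusted p = 0.00021, 8 of 8 animals), Cd163 by 0.68 ± 0.13 (adjusted p = 0.013, 7 of 8) and Csf1r by 0.47 ± 0.10 (adjusted p = 0.019, 7 of 8). The Csf1r call ended without dnPI3K 1507 or 1660 or dnPI3K-Mst1 1509 or 1650, with adjusted p between 0.051 and 0.069. In all 8 animals F13a1 was lower by 0.92 ± 0.10 (adjusted p = 0.00021), Clec10a by 1.35 ± 0.17 (adjusted p = 0.00057), Mrc1 by 0.64 ± 0.11 (adjusted p = 0.0042) and Cbr2 by 0.49 ± 0.08 (adjusted p = 0.003). The antigen-presenting genes showed another pattern. In Ntg the MHC class II genes H2-Ab1 (1.35 ± 0.43), H2-Aa (1.25 ± 0.42) and H2-Eb1 (1.06 ± 0.26) and the invariant chain gene Cd74 (1.22 ± 0.29) were higher on the Bmp10-high array in all 4 pairs, with H2-Aa groups overlapping. Of 13 tested dendritic and antigen-presenting genes 7 were higher and 0 lower in all 4 Ntg pairs, beside 13% and 12.6% of all genes. In the 8 other animals only Cd207 of the 13 passed, beside 0.999% of all genes as higher and 1.51% as lower. H2-Ab1 (0.40 ± 0.24, adjusted p = 0.63) and Cd74 (0.51 ± 0.25, adjusted p = 0.48) did not pass there. Taken by genotype, in dnPI3K alone H2-Aa (1.20, adjusted p = 0.00025), Cd74 (1.20, adjusted p = 5e-04), H2-Ab1 (0.99, adjusted p = 0.0067) and H2-Eb1 (0.88, adjusted p = 0.003) passed as higher, and in dnPI3K-Mst1 alone their differences lay between -0.19 and -0.16 with adjusted p of 0.93 to 0.95.

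**Figure D2:**
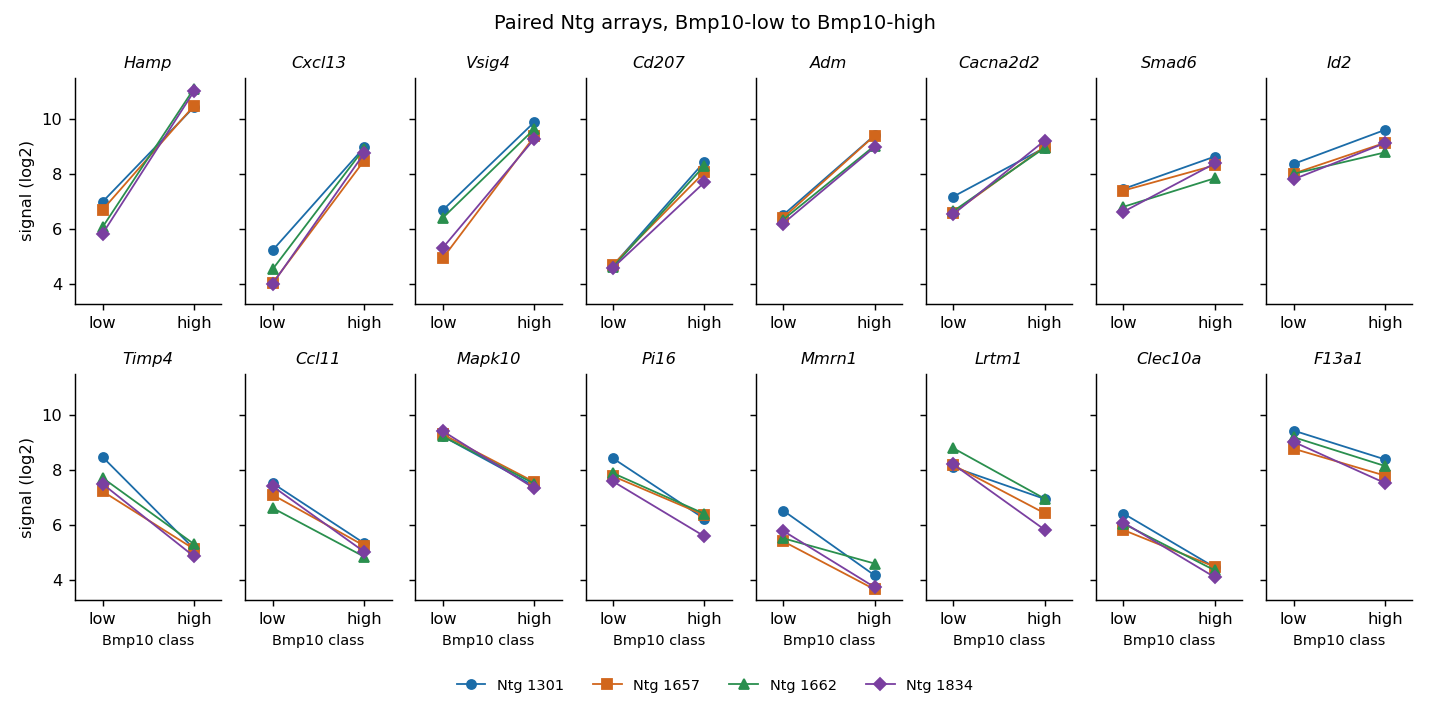
Signal (log2, vertical axis) of 16 genes on the Bmp10-low and Bmp10-high array of each Ntg animal, joined by a line per animal. The upper row holds genes with higher values on the high array in all 4 pairs, from Hamp (4.37 ± 0.87 log2) to Id2 (1.11 ± 0.24), and the lower row genes with lower values in all 4 pairs, from Timp4 (-2.62 ± 0.53) to F13a1 (-1.14 ± 0.24).

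Of 18 tested genes of the sinoatrial node, 8 were higher and 1 lower on the Bmp10-high array in all 4 Ntg pairs (median 0.29), beside 13% and 12.6% of all genes. Cacna2d2, an accessory subunit of voltage-gated calcium channels, read 8.97, 9.01, 8.97 and 9.23 on the high arrays and 7.19, 6.60, 6.66 and 6.55 on the low ones (2.29 ± 0.38). Cpne5, a calcium-dependent membrane-binding protein gene, read 8.37, 8.28, 6.69 and 8.20 against 6.28, 5.90, 5.56 and 6.38 (1.85 ± 0.53), with the lowest high value in 1662. Rgs6, which shortens muscarinic signals to the atrial potassium channel, read 8.89, 9.05, 8.67 and 9.15 against 7.91, 7.86, 7.81 and 7.77 (1.10 ± 0.23). Cacna1d, the L-type calcium channel subunit that helps set the pacemaker rhythm, read 6.53, 6.58, 6.37 and 6.64 against 5.80, 5.70, 5.68 and 5.84 (0.77 ± 0.08). None of these 4 genes overlapped between the classes. The nodal transcription factor gene Shox2 differed by 0.49 ± 0.29 at a low level, between 3.95 and 4.93 over the 8 arrays. Hcn4, the main pacemaker channel gene, overlapped: its high arrays read 6.14, 6.42, 5.91 and 5.55 and its low arrays 6.60, 5.23, 5.46 and 5.30, so the low array of 1301, the one with the fat genes, held the highest value of all. Isl1 and Tbx3, also on the nodal list, overlapped too. Isl1 read 4.96, 4.97, 4.96 and 4.79 against 5.07, 5.04, 4.90 and 4.95. Tbx3 read 6.44, 6.45, 6.21 and 6.29 against 5.96, 6.04, 6.36 and 6.14. The 1 nodal gene lower in all 4 pairs was Smoc2, without overlap.

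Of the 18 nodal genes 9 passed in the 8 other animals as higher on the labelled left and 1, Bmp4, as lower, beside 0.999% and 1.51% of all genes, with a median of 0.29 against -0.02 over all genes. There Cacna1d was higher by 0.76 ± 0.08 (SE, limma adjusted p = 7.8e-05, 8 of 8 animals), Hcn4 by 0.69 ± 0.13 (adjusted p = 0.0086, 7 of 8), Cpne5 by 0.70 ± 0.13 (adjusted p = 0.0086, 8 of 8) and Cacna2d2 by 1.08 ± 0.22 (adjusted p = 0.016, 7 of 8). The calls of Cacna2d2, Rgs6 (0.59 ± 0.13, adjusted p = 0.029) and Shox2 (0.42 ± 0.10, adjusted p = 0.041) each ended when 1 of several animals was left out. The adjusted p was then 0.053 to 0.057 for Cacna2d2 (dnPI3K 1507, 1648 or 3241), 0.071 to 0.092 for Rgs6 (any 1 of the 4 dnPI3K animals) and 0.078 to 0.11 for Shox2 (dnPI3K 1660 or 3241, or any 1 of the 4 dnPI3K-Mst1 animals). In dnPI3K alone Cacna2d2 (1.78, adjusted p = 3e-06) and Rgs6 (0.98, adjusted p = 0.00016) passed and Shox2 (0.35, adjusted p = 0.46) did not. In dnPI3K-Mst1 alone Shox2 (0.50, adjusted p = 0.037) passed, and Cacna2d2 (0.38, adjusted p = 0.47) and Rgs6 (0.19, adjusted p = 0.71) did not.

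Other ion channel genes differed in both directions in Ntg. Ryr3, a calcium release channel gene of the sarcoplasmic reticulum, read 6.99, 8.04, 7.65 and 7.43 on the high arrays and 5.16, 5.87, 6.28 and 5.55 on the low ones (1.82 ± 0.33). Kcnc2, a fast delayed rectifier potassium channel gene, read 7.21, 6.96, 6.41 and 6.75 against 5.45, 5.72, 4.98 and 4.69 (1.62 ± 0.36). Both kept their groups apart. Scn4b, an accessory sodium channel subunit gene, ran the other way, with 5.14, 4.56, 5.73 and 4.88 against 6.09, 5.81, 7.38 and 5.88 (-1.21 ± 0.32). The atrial potassium channel gene Kcna5 was lower by 0.36 log2 on average, without overlap, and the background potassium channel gene Kcnk2 by 0.41 with overlap. Hrc, whose product binds calcium inside the sarcoplasmic reticulum, was lower by 0.53 log2 (SD 0.26), without overlap. Of 28 tested potassium channel genes 3 were higher, a share near that of all genes (13%), and 9 lower, beside 12.6% of all genes.

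Kcnc2 in the 8 other animals was higher on the labelled left by 0.99 ± 0.19 (limma, adjusted p = 0.011, 8 of 8) and Kcnk2 lower by 0.41 ± 0.07 (adjusted p = 0.0055, 8 of 8). Ryr3 was higher by 0.80 ± 0.18 (adjusted p = 0.026). Fitted by genotype, it gave 1.38 in dnPI3K (adjusted p = 3.1e-06) and 0.22 in dnPI3K-Mst1 (adjusted p = 0.76). Its call in the 8 other animals ended without any 1 of the 4 dnPI3K animals (adjusted p 0.079 to 0.09). Scn4b (-0.12 ± 0.10, adjusted p = 0.78), Kcna5 (0.16 ± 0.10, adjusted p = 0.65) and Hrc (0.36 ± 0.11, adjusted p = 0.12, but 0.63 with adjusted p = 0.018 in dnPI3K-Mst1 alone) did not pass, and for Kcna5 and Hrc the mean there had the opposite sign to Ntg.

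Among transcription factors, Tbx20, a T-box factor of heart chambers, read 10.11, 10.32, 9.93 and 10.05 on the high arrays and 8.93, 9.43, 9.06 and 8.99 on the low ones (1.00 ± 0.15). Hey1, a Notch target that is expressed in atria, read 7.65, 7.55, 7.54 and 7.38 against 6.70, 6.76, 6.83 and 6.75 (0.77 ± 0.13), and its ventricular relative Hey2 differed by 0.74 ± 0.20. Tbx5, which sets atrial identity, differed by 0.25 ± 0.08. In these 4 genes every high array exceeded every low one. Of 38 tested cardiac transcription factor genes 13 were higher and 1 lower in all 4 pairs, beside 13% and 12.6% of all genes, with a median of 0.05. In the 8 other animals Hey1 was higher by 0.78 ± 0.07 (limma, adjusted p = 3.9e-05, 8 of 8), while Tbx20 (0.47 ± 0.14, adjusted p = 0.11, but 0.92 with adjusted p = 7.2e-05 in dnPI3K alone), Hey2 (0.04 ± 0.11, adjusted p = 0.96) and Tbx5 (0.20 ± 0.09, adjusted p = 0.47) did not pass.

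Several secreted peptides and enzymes were higher on the Bmp10-high arrays. Adm encodes adrenomedullin, a peptide that widens blood vessels. Adm read 9.42, 9.41, 9.04 and 8.99 on the high arrays and 6.52, 6.42, 6.35 and 6.21 on the low ones, and its 4 pairs agreed closely at 2.90, 2.99, 2.69 and 2.79. A2m, a broad protease inhibitor, read 7.06, 6.65, 6.59 and 6.34 against 4.58, 4.91, 4.71 and 4.80 (1.91 ± 0.40). Adh6b, an alcohol dehydrogenase gene, read 7.84, 7.48, 6.84 and 7.42 against 5.56, 5.30, 4.91 and 5.69 (2.03 ± 0.25). In these 3 genes the classes did not overlap. The growth factor gene Igf2 read 10.08, 10.25, 9.42 and 9.74 against 8.87, 8.79, 8.28 and 8.06 (1.37 ± 0.24), and Igfbp3, whose product binds it, 8.97, 8.03, 8.27 and 8.43 against 7.26, 7.16, 7.16 and 6.69 (1.36 ± 0.43). The phospholipase gene Pla2g5 read 7.89, 7.96, 7.95 and 7.96 against 6.49, 6.57, 6.77 and 6.42 (1.38 ± 0.15). These 3 genes also kept their classes apart. Penk, the enkephalin precursor gene, differed by 1.47 ± 0.41, the leptin receptor gene Lepr by 1.58 ± 0.24 and the secreted Wnt antagonist gene Frzb by 1.28 ± 0.29, none with overlap and Lepr with low arrays around the dim limit. The pairs of Penk were the most uneven of these, as its SD shows. Gsg1l, a glutamate receptor accessory protein gene, differed by 1.17 ± 0.12 without overlap. Sfrp2, another Wnt antagonist gene, differed by 0.82 ± 0.08 and the neuropeptide Y receptor gene Npy1r by 0.85 ± 0.20, both higher in all 4 pairs with overlapping groups. For these the animals differed more in level than the classes did. The endothelial genes Vwf (0.76 ± 0.28) and Tek (0.52 ± 0.18), for von Willebrand factor and the angiopoietin receptor, were higher without overlap. Of 15 tested endothelial genes 6 were higher and 1 lower in all 4 pairs, beside 13% and 12.6% of all genes (median 0.17, and 0.06 without 1657).

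Most of these passed in the 8 other animals as higher on the labelled left, each in 8 of 8 animals unless stated. The limma differences were 2.38 ± 0.17 for A2m (adjusted p = 4e-06), 2.16 ± 0.11 for Adh6b (adjusted p = 3.7e-08), 1.18 ± 0.11 for Adm (adjusted p = 4.5e-05) and 1.28 ± 0.18 for Igfbp3 (adjusted p = 0.00086). Igf2 was higher by 1.62 ± 0.26 (adjusted p = 0.0031, 7 of 8), Npy1r by 1.20 ± 0.14 (adjusted p = 0.00024), Pla2g5 by 1.02 ± 0.17 (adjusted p = 0.0036), Gsg1l by 0.73 ± 0.08 (adjusted p = 0.00024) and Sfrp2 by 0.68 ± 0.11 (adjusted p = 0.0024). Tek passed at 0.36 ± 0.09 (adjusted p = 0.038), but not without dnPI3K 1507 or 1648 or dnPI3K-Mst1 1509 or 1650 (adjusted p 0.075 to 0.11). Penk (0.25 ± 0.30, adjusted p = 0.86), Lepr (0.75 ± 0.24, adjusted p = 0.16), Frzb (0.16 ± 0.14, adjusted p = 0.82) and Vwf (0.40 ± 0.14, adjusted p = 0.22) did not pass. Fitted by genotype, Penk passed as higher in dnPI3K (1.28, adjusted p = 4.4e-05) and as lower in dnPI3K-Mst1 (-0.77, adjusted p = 0.035), the latter opposite to Ntg. Lepr passed in dnPI3K alone (1.60, adjusted p = 1.9e-06) and Vwf in dnPI3K-Mst1 alone (0.71, adjusted p = 0.041).

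The genes that were lower on the Bmp10-high arrays, and so higher on the Bmp10-low ones, included secreted products and some, not all, of the stromal and lymphatic markers. Timp4, an inhibitor of matrix metalloproteinases, read 5.15, 5.14, 5.32 and 4.87 on the high arrays and 8.49, 7.24, 7.73 and 7.51 on the low ones, a 6.16-fold gap. The 1301 pair, whose low array carried the fat genes, gave -3.34 and the other pairs -2.10, -2.41 and -2.64. Ccl11, the eosinophil chemokine eotaxin, read 5.35, 5.26, 4.86 and 5.04 against 7.53, 7.11, 6.63 and 7.42 (-2.04 ± 0.28). Mapk10, a Jun kinase gene, read 7.43, 7.58, 7.52 and 7.35 against 9.24, 9.31, 9.24 and 9.43, so each class lay within a narrow band (-1.84 ± 0.17). Mme, the membrane protease neprilysin, differed by -1.81 ± 0.70 and the interferon-inducible gene Ifi205 by -2.13 ± 0.69, both widest in a single animal, 1301 for Mme at -2.62 and 1657 for Ifi205 at -3.08. The glycerol channel gene Aqp7, also an adipocyte gene, differed by -1.78 in 1301 and by -1.08, -1.28 and -1.50 in the others. All 6 genes had groups apart.

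Pi16, which marks a widespread fibroblast state, read 6.24, 6.37, 6.42 and 5.60 on the high arrays and 8.44, 7.79, 7.90 and 7.60 on the low ones (-1.78 ± 0.39). Cd248, the stromal surface protein endosialin, differed by -1.11 ± 0.19. Other fibroblast genes ran the opposite way. Of 16 tested, 5 were higher and 3 lower in all 4 pairs, beside 13% and 12.6% of all genes, with a median of 0.12. Tcf21, a transcription factor gene of cardiac fibroblasts, read 9.23, 8.73, 8.61 and 8.76 on the high arrays and 8.53, 7.56, 8.16 and 8.09 on the low ones (0.75 ± 0.30), without overlap. Mmrn1, a marker of lymphatic endothelium, read 4.18, 3.67, 4.61 and 3.75 against 6.54, 5.42, 5.53 and 5.80 (-1.77 ± 0.62), and the lymphatic gene Reln differed by -0.59 ± 0.35. The high arrays read Mmrn1 around or below the dim limit of 4.48, so its difference rests on a dim side. Lyve1, also found on lymphatic endothelium and on macrophages, was by contrast higher on the Bmp10-high arrays by 0.73 ± 0.14, and the venous receptor gene Ephb4 by 0.47 ± 0.07, both without overlap. Of 11 tested genes of endocardium, veins and lymphatics 2 were higher and 3 lower in all 4 pairs, beside 13% and 12.6% of all genes. The secreted phospholipase gene Pla2g2d (-1.46 ± 0.32), the matrix protein genes Vtn (-1.56 ± 0.17) and Hmcn2 (-1.41 ± 0.06), the sodium, calcium and potassium exchanger gene Slc24a2 (-1.65 ± 0.23) and the membrane protein gene Lrtm1 (-1.78 ± 0.50) were lower in all 4 pairs. None of these 9 lower genes overlapped between the classes. Of 42 tested collagen and matrix genes 9 were higher and 10 lower in all 4 pairs, beside 13% and 12.6% of all genes, with a median of 0.00, while 2 and 10 passed in those directions in the 8 other animals, beside 0.999% and 1.51%. Inmt, a methyltransferase gene, read 8.41, 7.70, 8.16 and 8.32 on the high arrays and 10.19, 8.85, 8.77 and 10.29 on the low ones (-1.38 ± 0.62).

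Mmrn1 in the 8 other animals was lower on the labelled left by 2.62 ± 0.20 (SE, limma adjusted p = 6.5e-06), Mapk10 by 1.56 ± 0.20 (adjusted p = 0.00049), Pi16 by 1.45 ± 0.20 (adjusted p = 0.00093), Pla2g2d by 1.41 ± 0.12 (adjusted p = 1.6e-05), Aqp7 by 1.27 ± 0.14 (adjusted p = 0.00018), Reln by 0.95 ± 0.14 (adjusted p = 0.0011), Slc24a2 by 0.79 ± 0.11 (adjusted p = 0.0007), Vtn by 0.77 ± 0.10 (adjusted p = 0.00063) and Cd248 by 0.70 ± 0.10 (adjusted p = 0.00093). Each of these was lower in 8 of 8 animals. Tcf21 passed as higher (0.39 ± 0.09, adjusted p = 0.038, 7 of 8), a call that ended without dnPI3K 1507, 1648 or 1660 or dnPI3K-Mst1 1509, 1649 or 1650 (adjusted p 0.087 to 0.12) and in either genotype alone, and Lyve1 (0.27 ± 0.17, adjusted p = 0.67) did not pass. Timp4 averaged -1.15 ± 0.25 (adjusted p = 0.02) but was higher on the labelled left in 2 of 8. Fitted by genotype, it gave -1.88 in dnPI3K (adjusted p = 3.6e-06) and -0.43 in dnPI3K-Mst1 (adjusted p = 0.68). Its call in the 8 other animals ended without any 1 of the 4 dnPI3K animals (adjusted p 0.054 to 0.074). Ccl11 (-0.77 ± 0.23, adjusted p = 0.13), Ifi205 (-0.89 ± 0.28, adjusted p = 0.15), Mme (-1.02 ± 0.29, adjusted p = 0.099), Inmt (-0.31 ± 0.40, adjusted p = 0.88), Hmcn2 (-0.19 ± 0.09, adjusted p = 0.48) and Lrtm1 (0.28 ± 0.17, adjusted p = 0.63) did not pass. In dnPI3K alone Ifi205 (-1.87, adjusted p = 1.1e-06), Mme (-1.73, adjusted p = 6e-06), Inmt (-1.60, adjusted p = 1.2e-06) and Ccl11 (-1.52, adjusted p = 9.2e-05) passed as lower, while in dnPI3K-Mst1 alone their adjusted p lay between 0.34 and 0.99.

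Lists of the energy and contractile machinery leaned to lower values on the Bmp10-high arrays by small amounts. Of 43 tested genes of oxidative phosphorylation, the respiratory chain and ATP synthase, 0 were higher and 21 lower in all 4 Ntg pairs. This stands beside 13% and 12.6% of all genes, and the median was -0.16. Ndufb8, a complex I subunit gene, read 9.30, 9.32, 9.21 and 9.22 against 9.65, 9.80, 9.67 and 9.46 (-0.38 ± 0.11), and Cox7a1, a complex IV subunit gene of muscle, differed by -0.24 ± 0.14. Of 33 genes of fatty acid oxidation and storage 1 was higher and 13 lower (median -0.12), beside the same shares of all genes. Of 34 sarcomere and Z-disc genes 1 was higher and 14 lower (median -0.10), again beside 13% and 12.6%. In the 8 other animals 0 genes of these 3 lists passed in either direction, with medians of 0.01, -0.06 and -0.01. Of all genes 0.999% passed there as higher and 1.51% as lower. In lists of this size 0 is near such shares, so it is not read as a difference from Ntg. The counts moved with single animals: without 1657, 23 fatty acid genes were lower in the remaining pairs, beside 17.7% of all genes, and without 1662, 7 sarcomere genes were higher and 14 lower, beside 22.5% and 18.3%. The brain natriuretic peptide gene Nppb overlapped between the classes (0.02 ± 0.36). Of 23 immediate early genes 1 was higher and 7 lower in all 4 pairs, beside 13% and 12.6% of all genes. Their median of -0.27 was -0.08 without animal 1657. The low array of 1657 read Nr4a3 at 8.81 and Egr1 at 7.81 against 5.34 to 6.51 and 6.07 to 6.79 on the other 7 arrays.

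**Figure D3:**
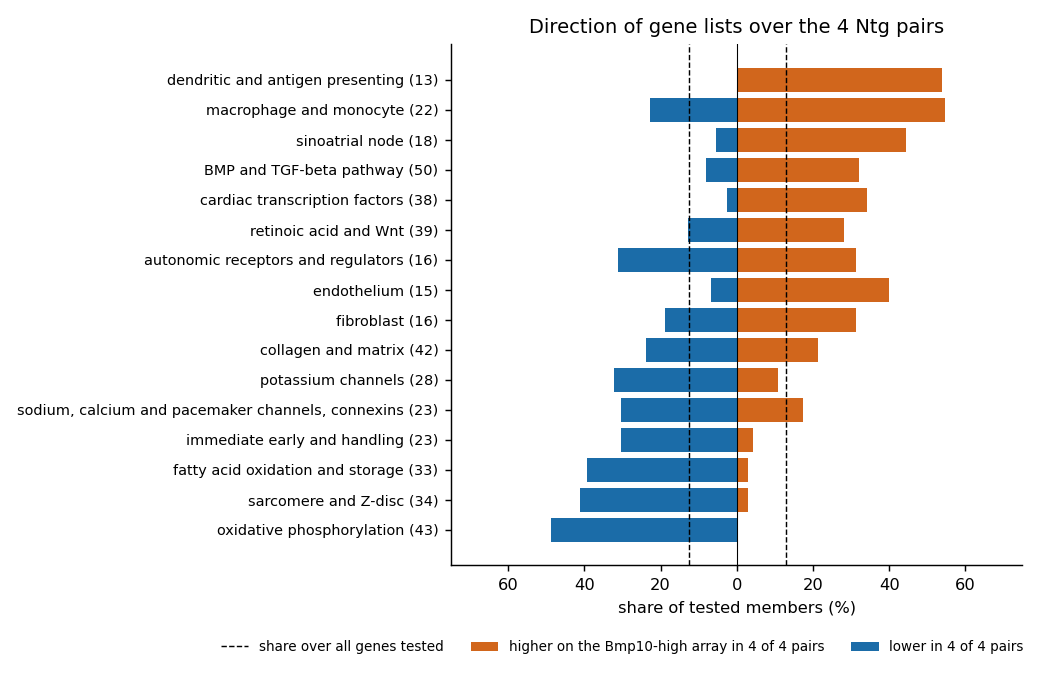
Share of the tested members of 16 gene lists (numbers tested in brackets) that were higher (bars to the right) or lower (bars to the left) on the Bmp10-high array in all 4 Ntg pairs, in percent. The dashed lines are the shares over all 15219 genes tested, 13% higher and 12.6% lower. The 16 lists are a selection of those examined, set in an order chosen by hand. At the top 7 of 13 dendritic and antigen-presenting genes were higher, and at the bottom 21 of 43 oxidative phosphorylation genes were lower.

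Of the 94 genes that were at least 2-fold apart in Ntg, 54 passed the test in the 8 other animals with the same direction and 0 with the opposite one. These were 29 of the 55 higher genes, Bmp10 included, and 25 of the 39 lower ones, beside 0.999% and 1.51% of all genes tested. The pass of Bmp10 carries no weight, since its side led to the choice of these animals. The means had the same sign for 53 of the 55 and 38 of the 39, for which no share over all genes is given here. Of the 94, 82 passed when dnPI3K was fitted alone and 27 when dnPI3K-Mst1 was. Over all 15219 genes tested, 518 passed in dnPI3K alone and 169 in dnPI3K-Mst1 alone. Whether the 2 genotypes differ in the 94 genes beyond this was not tested. In dnPI3K-Mst1 alone the calls of Hamp, Smad7, Csf1r, Mrc1, Cbr2, Clec10a, Cacna2d2, Cpne5, Rgs6, Ryr3, Kcnc2, Kcnk2, Igf2, Pla2g5, Tek, Timp4, Cd248, Aqp7 and Tcf21 ended, with adjusted p from 0.053 for Tcf21 to 0.76 for Ryr3. In dnPI3K alone those of Smad7, Bmp4, Cd163, Hcn4, Shox2, Tcf21 and Tek ended, with adjusted p from 0.076 for Bmp4 to 0.46 for Shox2. Counted over all 16 animals, Mst1 included, 18 of the 55 genes were higher on the Bmp10-high array in every animal, Bmp10 among them. Of the 39, 18 were lower in every animal. In the 4 Ntg animals these signs were part of the choice of the genes, and no share over all genes is given here, so nothing is read from these counts.

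**Figure D4:**
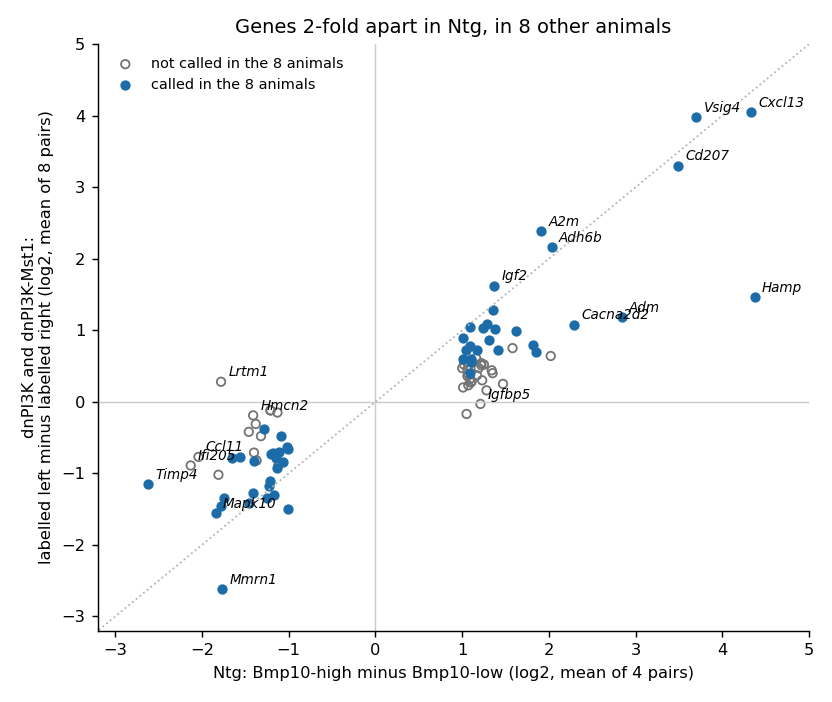
Mean Bmp10-high minus Bmp10-low difference in Ntg (log2, 4 pairs, horizontal axis) against the mean labelled left minus labelled right difference in the 8 dnPI3K and dnPI3K-Mst1 animals (log2, vertical axis) for the genes at least 2-fold apart in Ntg, without Bmp10. Filled points passed limma at an adjusted p of 0.05 in the 8 animals, open points did not, and the dotted line marks equal differences. Vsig4, Cxcl13 and Cd207 lie near that line, and Hamp, Adm and Cacna2d2 lie below it.

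Whether the gap between the classes differed by genotype was tested as the Ntg difference minus the mean of the other 3 genotypes, with arrays of all 16 animals set by Bmp10. This limma fit called 156 genes, 1.03% of those tested, 99 with the more positive difference in Ntg and 57 with the more negative. Genes named for a wide gap in Ntg are favoured to look wider there, so the values that follow carry that limit. The largest contrasts on the positive side were Hamp at 3.05 ± 0.32 log2 (SE, adjusted p = 1.3e-05), Adm at 1.80 ± 0.12 (adjusted p = 7.1e-09), Cacna2d2 at 1.57 ± 0.19 (adjusted p = 0.0001), Hamp2 at 1.54 ± 0.28 (adjusted p = 0.0057) and the BMP family ligand gene Gdf6 at 1.38 ± 0.18 (adjusted p = 0.00012). For Hamp the mean gap was 4.37 in Ntg, but 1.04 in Mst1 animals, 2.42 in dnPI3K animals and 0.50 in the double transgenics. For Adm they were 2.84, 0.75, 1.52 and 0.84, with each Ntg animal above each of the 12 others. Cacna2d2 gave 2.29, -0.01, 1.78 and 0.38 in the same order. Gdf6 was different, since its Ntg gap was near 0 (-0.10 ± 0.27) and those of the others were -2.02, -0.65 and -1.79.

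On the negative side the largest were Lrtm1 at -1.96 ± 0.25 (adjusted p = 0.00013), Timp4 at -1.67 ± 0.24 (adjusted p = 0.00042), Ifi205 at -1.64 ± 0.20 (adjusted p = 0.0001), Ccl11 at -1.51 ± 0.20 (adjusted p = 0.00018) and Inmt at -1.48 ± 0.30 (adjusted p = 0.015). Lrtm1 averaged -1.78 in Ntg and -0.01, 0.42 and 0.13 in Mst1, dnPI3K and dnPI3K-Mst1, and Ccl11 -2.04 against -0.07, -1.52 and -0.02. The call of Inmt ended without Ntg 1301 or 1834 (adjusted p 0.1 in each). Against dnPI3K alone the count of genes called was 19, with Hamp (1.94, adjusted p = 0.049), Adm (1.32, adjusted p = 0.00012) and Lrtm1 (-2.20, adjusted p = 0.0031) among them, whereas Cacna2d2 (0.51, adjusted p = 0.54), Timp4 (-0.74, adjusted p = 0.45) Ccl11 (-0.52, adjusted p = 0.56), Hamp2 (adjusted p = 0.51), Ifi205 (adjusted p = 0.81) and Gdf6 (adjusted p = 0.46) did not pass. The immune genes Vsig4, Cxcl13 and Cd207 did not pass in this comparison, with contrasts of -0.39 ± 0.22 (adjusted p = 0.58), 0.28 ± 0.19 (adjusted p = 0.69) and 0.14 ± 0.19 (adjusted p = 0.87).

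**Figure D5:**
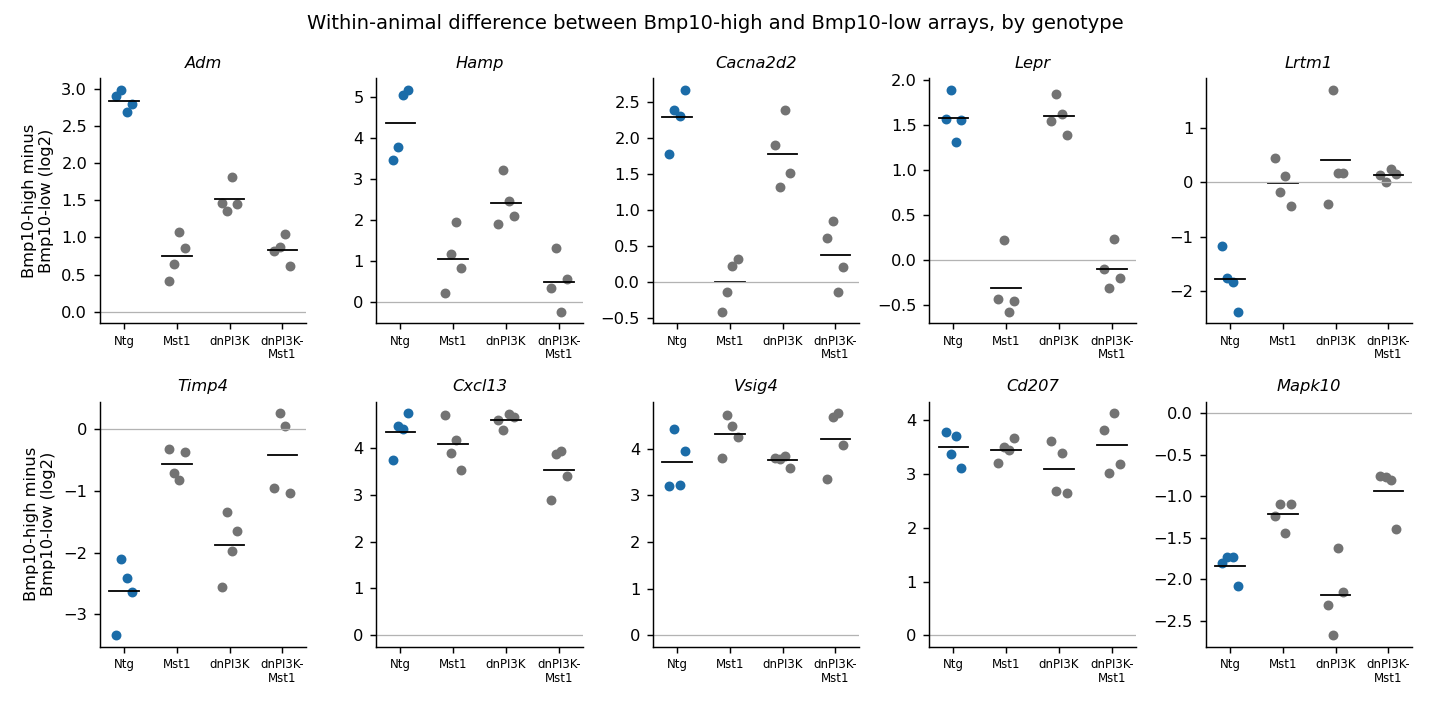
Within-animal difference between the Bmp10-high and the Bmp10-low array (log2, vertical axis, scaled separately for each gene) for 10 genes in the 4 genotypes. Points are animals (4 per genotype), black bars are means, and the grey line is no difference. Adm in Ntg runs from 2.69 to 2.99 above every other animal, Lepr is near 1.58 in Ntg and 1.60 in dnPI3K but -0.32 in Mst1 and -0.10 in dnPI3K-Mst1, and Cd207 lies between 3.08 and 3.53 in the mean of every genotype.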

How the data were processed

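Each sample was an atrium hybridised to an Affymetrix Mouse Gene 1.0 ST array. The deposited values are log2 probe set signals, made with Affymetrix Expression Console and PLIER per the submitters' processing notes, for which version and scaling are not given in the sources used here. The log base was inferred from the range, 1.16 to 14.08. No detection calls were used, and arrays give no counts, so precision rests on the number of animals.

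Of 35512 probe sets, 21789 carried 1 gene symbol in the platform annotation and were kept, while 1621 with several symbols and 12102 without one were not. The brightest probe set stood for each of the 999 genes with several. Genes with a mean below 4.48 log2, the 30th percentile, were left out, which left 15219 of 19938. No array was left out, and no further scaling was applied.

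Classes followed Bmp10 in Ntg. The members, gene lists, rules and tests were chosen with earlier results of these data known. The fits were made with limma 3.58.1 in R 4.3.3 (lmFit, eBayes with trend, Benjamini-Hochberg), with the animal as a block because both arrays of an animal carry its number. Deviations of an animal's 2 Ntg arrays from their class means correlated by 0.36, 0.25, 0.20 and 0.33. Labels do not say whether mice were littermates. The second fit took side within animal over dnPI3K and dnPI3K-Mst1; it was planned as right minus left and is given as left minus right. The third compared the Ntg difference with the mean of the others.

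On simulated data the 3 fits recovered 93%, 99.5% and 96.5% of genes changed by 1 log2 and 8.5%, 81.5% and 28% of those changed by 0.5.

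Named genes were a selection from the 15 largest differences in each direction with 1 sign in all pairs, up to 4 such members of each list, the 5 largest called genotype differences in each direction, and Bmp10, Shox2, Hcn4, Tbx5, Nppa, Nppb, Hamp, Vsig4, Cxcl13 and Cd207. Other genes, among them the further BMP, MHC, macrophage, fat and early genes and those beside the 2-fold limit, were chosen after their values were seen. Promoters came from RefSeq (GRCm38.p6). Fits were repeated under other filters, scalings, weights and samples.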

Additional observations from a re-analysis of the deposited data

Results flagged for a closer look

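In 10 of 172 groups of 4 Ntg arrays, 1 array lay apart from the other 3 by Dixon's criterion, which chance alone meets in about 1 of 20 groups. On the Bmp10-high arrays these were Cacna2d2 in animal 1834 at 9.23 log2, Cpne5 in 1662 at 6.69, Pla2g5 in 1301 at 7.89, Hmcn2 in 1662 at 5.41 and Npy1r in 1662 at 6.57. On the Bmp10-low arrays they were Id1 in 1657 at 7.28, Hcn4 in 1301 at 6.60, Cd248 in 1834 at 7.38, Lrtm1 in 1662 at 8.81 and Pla2g2d in 1301 at 7.45. Of the 10, 4 came from animal 1662. The criterion is relative to the range of the 4 values, so a flagged array can lie close to the others in log2, as for Pla2g5. Without animal 1301, all remaining pairs of Hcn4 were higher on the Bmp10-high array (1.18, 0.44 and 0.25).

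For 30 of 86 genes examined for the report the Ntg difference was tested to differ from the mean of the other genotypes (limma, adjusted p at or below 0.05). Of all genes tested 1.03% did. Some of the 86 were named for a large value of this contrast or a wide Ntg gap, so nothing is read from the count. For Bmp4 the Ntg pairs lay around 0 (-0.02, -0.12, 0.26 and -0.29), as for Gdf6, and every animal of the other genotypes had a negative gap in both genes. Among BMP pathway and related genes the Ntg difference minus that mean was 3.05 log2 for Hamp, 1.54 for Hamp2, 0.75 for Id2, 0.66 for Smad7, 0.66 for Bmp5, 0.72 for Bmp4 and 1.38 for Gdf6. Among channel and nodal genes it was 1.57 for Cacna2d2, 1.27 for Cpne5, 1.27 for Ryr3, 0.77 for Kcnc2, 0.76 for Rgs6, -1.19 for Scn4b, -0.79 for Hrc and -0.84 for Slc24a2. The transcription factor genes Hey2 and Tbx20 gave 0.72 and 0.59. Secreted and receptor genes gave 1.80 for Adm, 1.29 for Frzb, 1.18 for Penk, 1.18 for Lepr and 0.53 for Gsg1l, and the lymphatic and macrophage gene Lyve1 gave 0.64. On the negative side stood Lrtm1 at -1.96, Timp4 at -1.67, Ifi205 at -1.64, Ccl11 at -1.51, Inmt at -1.48, Hmcn2 at -1.34 and Vtn at -0.94.

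Against dnPI3K alone only Hamp, Adm, Lrtm1, Slc24a2 and Hmcn2 of the 30 passed. There Kcnc2 gave 0.04, Rgs6 0.12, Ryr3 0.43, Cpne5 0.78, Tbx20 0.08, Penk 0.18 and Scn4b -0.90, with adjusted p between 0.091 and 0.97. Several of these calls ended without 1 Ntg animal: Id2 (adjusted p 0.12 to 0.17 without 1301, 1657 or 1834), Bmp4 (0.09 to 0.16 without 1301, 1657 or 1662), Bmp5 (0.054 and 0.13 without 1657 or 1834), Kcnc2 (0.15 and 0.17 without 1301 or 1834), Hey2 and Gsg1l (0.051 to 0.15 without any 1 of the 4), and Lyve1 (0.098 to 0.22 without any 1 of the 4, and 0.053 to 0.084 without 9 of the 12 other animals). Without dnPI3K-Mst1 1509 the calls of Bmp4 (0.055) and Id2 (0.06) ended too.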

How the results depend on the processing

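The 94 genes at least 2-fold apart in Ntg numbered 91 to 99 without single animals and 91 to 99 under other filters, scalings and summaries of probe sets. Compared by label, right minus left, 1 gene remained at that size and 0 passed limma, with 269 of 15219 at an unadjusted p under 0.05. The 753 genes called in Ntg became 329 with no replicate block, that is, without pairing an animal's arrays, 403 to 875 without single animals and 556 to 1060 under the other settings. The 382 genes called in the 8 other animals became 518 in dnPI3K alone, 169 in dnPI3K-Mst1 alone and 317 with no replicate block. They became 258 to 395 without single animals and 360 to 421 under the other settings. Of the 94 genes, 54 passed there, against 82 in dnPI3K alone, 27 in dnPI3K-Mst1 alone, 53 with no replicate block and 44 to 61 without single animals. The 156 genotype differences became 425 with array weights, 62 with no replicate block, 19 against dnPI3K alone and 74 to 159 without single animals. The lowest counts came without Ntg 1301 (74), 1657 (81) and 1834 (86), and 1301, 1657 and 1834 also gave the lowest Ntg counts (403, 494 and 486). Against dnPI3K alone the contrast turned sign for Bmp5 (-0.12), Lepr (-0.02), Lyve1 (-0.03) and Inmt (0.23), none of which passed. Fits on fewer animals have less data, and the cause of these changes was otherwise not tested. Of 86 genes examined, quantile scaling, centring and averaging of probe sets turned the Ntg sign of 0, and the side labels turned that of 50. Of the 94 genes, 5 had a class mean under 4.48 log2, which limits how far their folds can be read. Quantile scaling brought Smad6 past the threshold in the 8 other animals (0.57, adjusted p = 0.046).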
